A study of Mus musculus with 4 samples.

Results

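The suppressor of cytokine signalling (SOCS) genes and the PIM kinase genes were followed in mouse haematopoietic stem cells (HSC) after loss of the retinoblastoma (Rb) family. The set held 10 genes, the 8 SOCS genes Socs1 to Socs7 and Cish and the 2 kinase genes Pim1 and Pim2, out of 18193 genes measured. Members were the 27 probe sets whose platform annotation gave exactly 1 gene symbol equal to a listed name, and each gene was represented by its brightest probe set, taken by the mean of all 4 arrays. The set was drawn up with earlier results of these arrays known, in which Socs3 had the lowest p of all genes. The differences between the groups are therefore a description of the genes, and no p-value is given for a member.

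Expression was measured on 4 Affymetrix arrays, with 2 pools of 3 mice for each of the groups, Rb family deficient and wild type. The deficient pools carry the genotype label Rb -/- p130 -/- p107-/- and the wild type pools Rb +/+ p130 +/+ p107-/-, so the gene for p107 is labelled as lost in both groups. In adult mice tamoxifen was used to start recombination, and 2 weeks later HSC were sorted with a KLS CD48- CD150+ gate. The sources used here do not name the driver of the recombinase. Nothing states whether a mouse entered more than 1 pool, so the spread within a group is the spread between these pools. All values are log2 expression values on the scale made by RMA, the array normalization that the submitters name.

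SOCS proteins are the negative feedback arm of cytokine receptor signalling. A cytokine receptor activates Janus kinases (JAKs), which phosphorylate STAT transcription factors, and STATs switch on SOCS genes. The SOCS proteins then bind receptors or JAKs through an SH2 domain, block them or, through the SOCS box, hand them to a ubiquitin ligase. Pim1 and Pim2 encode serine/threonine kinases that STATs also induce and that favour survival and growth in blood cells. In HSC, thrombopoietin and other cytokines signal through this pathway.

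The libraries as a whole set limits on every value. All 11 measured HSC markers lay above the array medians of 5.94 to 6.02, from 7.14 (Hoxb5) to 12.48 (Meis1). Of the 3 genes listed as low in such HSC, only Cd48, the one the gate selects against, was near those medians, at 5.84 to 7.09. Flt3 lay between 9.42 and 9.84, and Cd34 had group means of 10.15 in deficient and 10.90 in wild type pools. Both were above the array medians, so these values do not show the low level listed. Values of different probe sets are not on a common absolute scale, and the gate as labelled names neither gene. Of the targeted genes, Rbl2 (p130) was lower in the deficient pools by a log2 difference of -0.83 (SE 0.19), or -0.33 on its dimmer probe set. Rb1 differed by 0.29 (SE 0.16) and Rbl1 (p107) by -0.96 (SE 0.30). Rbl1 was at 5.35 and 5.42 against 5.92 and 6.77, without overlap and above the array medians only in wild type pool 2. The 3 other Rbl1 probe sets differed by -0.00087, 0.03 and 0.03, with overlap. The sources used here do not say whether these probe sets fall in the deleted exons. The Y-linked gene Eif2s3y was at 8.50 and 9.64 in deficient HSC against 9.93 and 10.29. The X-linked gene Xist was at 13.28 and 13.05 against 13.06 and 12.72, with overlap. To gauge RNA integrity, array control probe sets were read as the 3' end minus the 5' end. Those of Actb gave 3.13 and 2.95 against 2.32 and 2.81. Those of Gapdh gave 2.79 and 2.50 against 2.40 and 2.58, with overlap. The part of these in the results was not tested. In bulk RNA, fewer cells of a type and less RNA per cell cannot be told apart.

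Socs3, the feedback inhibitor of gp130, leptin and granulocyte colony-stimulating factor receptors, stood apart from the rest of the set. On its main probe set it was at 10.91 and 11.14 in the deficient pools and at 8.56 and 8.71 in the wild type pools. Both deficient pools lay far above both wild type pools, and the pools of each group lay close together. The means were 11.02 ± 0.16 (SD, n = 2) and 8.63 ± 0.11 (SD, n = 2), a log2 difference of 2.39 (SE 0.16, the moderated standard error from limma) or 5.23-fold. By size this difference ranked number 5 of the 18193 genes. The smallest of the 4 differences between a deficient and a wild type pool was 2.19 and the largest 2.58, and with any single pool left out the value ran from 2.27 to 2.50.

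The 3 Socs3 probe sets agreed in direction and not in size. The second was at 9.92 and 10.10 against 7.94 and 7.74, which differ by 2.17 (SE 0.16). The third was at 7.60 and 7.55 against 6.62 and 6.87, which differ by 0.83 (SE 0.16). Groups did not overlap on any of them. Both brighter probe sets, which gave the larger values, have names ending in _x_at, meaning that some of their probes may also bind other transcripts. The third is the dimmest of the 3 and has no such ending.

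**Figure D1:**
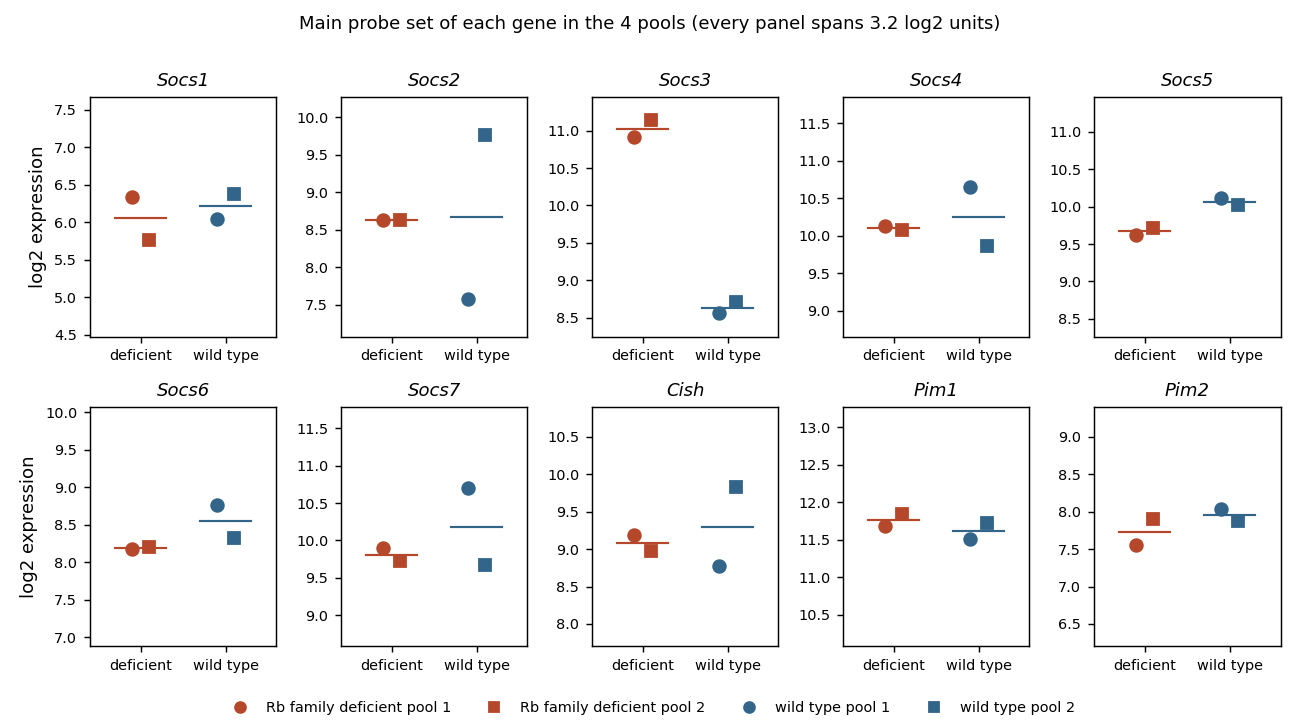
Log2 expression (vertical axis) of the main probe set of each of the 10 genes in 2 Rb family deficient pools (red) and 2 wild type pools (blue). Circles are pools numbered 1, squares pools numbered 2, lines are group means, and every panel spans the same range. Socs3 separates the groups by 2.39, and Socs2 separates the wild type pools from each other by 2.19.

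The other 9 members differed far less. Their differences ran from -0.39 to 0.15, and Socs3 was the single member of at least 2-fold, where 0.528% of all genes were at least 2-fold higher and 0.275% at least 2-fold lower. Over the set, 2 genes lay above 0 and 8 below (3 above with median centring of the arrays, Socs2 being added, 4 without wild type pool 1 and 5 without wild type pool 2), with a median of -0.19, against a median of -0.0038 over all genes, of which 49.2% lay above 0. Limma called 0 of the 10 members at an adjusted p under 0.05, as it called 0 of all 18193 genes (0%). Without adjustment (p under 0.05) limma put 2.19% of all genes higher and 4.04% lower. These were 399 and 735 genes, or 601 and 530 with median centring. The groups did not overlap for 1 member higher and 2 lower (Socs5 and Socs6), where 17% of all genes were higher without overlap and 18.5% lower. These shares are printed as background, since the set was chosen on this contrast.

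Cish and Socs2 are the classic targets of STAT5 in the family, and both act on growth hormone and cytokine receptors of the STAT5 type. Socs2 was at 8.63 in each deficient pool and at 7.58 and 9.77 in the wild type pools. The deficient pools thus lay between the wild type pools, which stood 2.19 apart, a gap larger than that of 99.9% of genes. The group means of 8.63 and 8.68 gave a log2 difference of -0.05 (SE 0.69). This value was 1.05 without wild type pool 2 and -1.14 without wild type pool 1, so its sign is set by which wild type pool is used, and with median centring of the arrays it was 0.01.

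The second brightest Socs2 probe set showed the same arrangement. Its name ends in _s_at, meaning that its probes may match several transcripts. It was at 7.88 and 8.11 in the deficient pools and at 7.51 and 9.61 in the wild type pools. The 4 dimmer Socs2 probe sets differed by -0.38 to 0.16, and wild type pool 2 was above wild type pool 1 on all 6, by between 0.27 and 2.19.

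Cish followed a like order in the wild type pools, at 8.77 and 9.83, with the deficient pools at 9.19 and 8.97 between them. Its wild type gap of 1.06 was larger than that of 98.1% of genes. The log2 difference was -0.22 (SE 0.36), and it turned to 0.31 without wild type pool 2. Cish has a single probe set here.

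Letters of the STAT binding type were searched in the RefSeq promoter windows (build GRCm38.p6), 250 bases before to 50 bases from a gene start, as background to these STAT-induced genes. Windows were at hand for 6 of the 10 members, and for Socs2, Socs5, Socs6 and Socs7 none was used. The motif TTCNNNGAA, which reads the same on both strands, was in the windows of Socs3 and Cish and in 8.33% of all 32544 distinct windows. The Socs3 match begins at position -154, counted back from the start, and is shown with 10 bases on either side (minus strand, chr11:117969502-117969530). The Cish matches begin at bases 1 and 12 from the start and are shown as the stretch that holds both (plus strand, chr9:107296659-107296678). In the RefSeq gene table the Socs3 gene span reaches beyond this start (chr11:117966079-117970336), so both printed stretches lie inside the gene span of their gene. Capitals mark the motif.
Socs3: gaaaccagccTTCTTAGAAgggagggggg
Cish: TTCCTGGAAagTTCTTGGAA

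The sequences are shown because both genes hold these letters near a start while their values across the pools differed, with Socs3 separating the groups and Cish the wild type pools. The E2F-type letters TTTGGCGC and TTTCGCGC, searched on both strands because the Rb family restrains E2F factors, were in 0.519% and 0.326% of all windows and in none of the 7 member windows. A match describes letters in a window and no more, and its absence says only that the letters are not there.

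Socs1, a strong inhibitor of interferon signalling, was at 6.34 and 5.77 in the deficient pools and at 6.05 and 6.38 in the wild type pools. The groups overlapped, and the difference of -0.16 (SE 0.25) was smaller than the gap of -0.57 between the deficient pools. With a pool left out it ran from -0.44 to 0.13, so its sign is not settled. These values lie near the array medians, and as detection calls were not used they have no check against background.

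Socs4 and Socs5, a pair of related genes linked to epidermal growth factor receptor turnover, went different ways in how well the pools agreed. Socs5 was at 9.62 and 9.72 in the deficient pools and at 10.11 and 10.02 in the wild type pools. Both deficient pools were lower than both wild type pools, with gaps within groups of 0.10 and -0.09. The difference was -0.39 (SE 0.14), 1.31-fold lower, and it ran from -0.44 to -0.35 with a pool left out. The second, dimmer Socs5 probe set was at 7.10 and 7.34 against 7.31 and 7.19 and differed by -0.04 (SE 0.16), and the mean of both gave -0.21.

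Socs4 was at 10.13 and 10.08 in the deficient pools and at 10.65 and 9.86 in the wild type pools. The deficient pools again lay between the wild type pools, and the difference of -0.15 (SE 0.28) became 0.24 without wild type pool 1. Its 3 other probe sets differed by 0.40 (an _s_at name), 0.19 and -0.19.

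Socs6 and Socs7, with roles at receptor tyrosine kinases and insulin signalling, were also highest in wild type pool 1. Socs6 was at 8.18 and 8.20 in the deficient pools and at 8.77 and 8.32 in the wild type pools. Groups did not overlap, and the difference was -0.36 (SE 0.20), of which -0.14 was left without wild type pool 1. The 2 other Socs6 probe sets differed by -0.56 and -0.18, so all 3 lay below 0, with overlap on these 2.

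Socs7 was at 9.90 and 9.72 in the deficient pools and at 10.70 and 9.67 in the wild type pools. The high value of wild type pool 1 carried the difference of -0.38 (SE 0.35), which was 0.13 without that pool. The other Socs7 probe sets differed by -0.07, 0.26 and 0.16. On the 2 dimmer ones both deficient pools lay above both wild type pools, opposite in sign to the brightest, and the mean of all 4 gave -0.01.

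**Figure D2:**
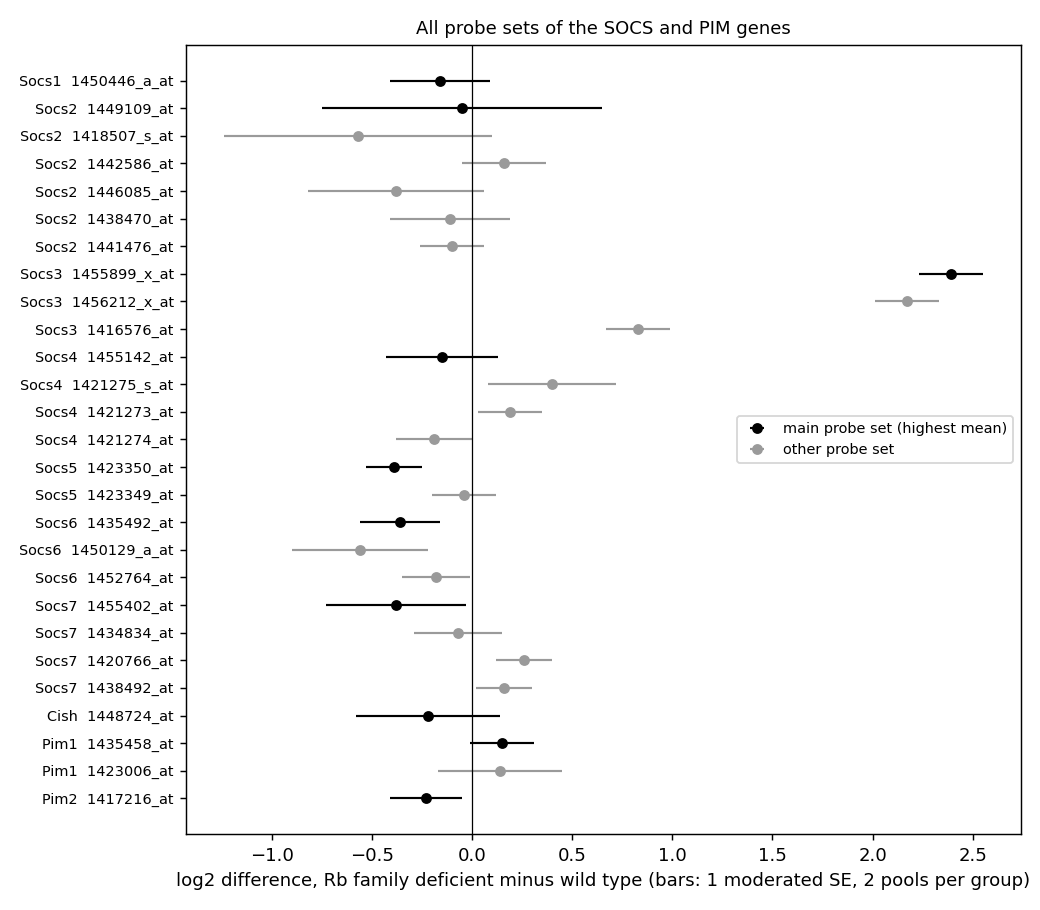
Log2 difference (horizontal axis, Rb family deficient minus wild type, bars of 1 moderated SE, n = 2 pools per group) for all 27 probe sets of the 10 genes. Black marks the brightest probe set of a gene and grey the others. The 3 Socs3 probe sets lie at 2.39, 2.17 and 0.83, and Socs2, Socs4 and Socs7 have probe sets on both sides of 0.

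The PIM genes differed little between the groups. Pim1 was at 11.69 and 11.84 in the deficient pools and at 11.51 and 11.73 in the wild type pools. The groups overlapped by a small margin, and the difference was 0.15 (SE 0.16). Its second probe set was at 7.58 and 7.56 against 7.87 and 6.98 and differed by 0.14 (SE 0.31).

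Pim2, on the X chromosome, was at 7.56 and 7.90 in the deficient pools and at 8.04 and 7.88 in the wild type pools. Deficient pool 1 was the low value, and the difference of -0.23 (SE 0.18) was -0.06 without it. The related kinase gene Pim3, outside the set, was at 10.63 and 10.88 against 9.78 and 10.56, which differ by 0.58 (SE 0.29), or 0.19 without wild type pool 1. That probe set has an _x_at name, and the Pim3 probe set without such a name was at 7.35 and 7.42 against 7.31 and 7.20, which differ by 0.13.

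For 7 of the 10 members the wild type pools stood further apart than the group means did. The share of all genes with this order was not counted, so it is not read as particular to the set. Socs2 and Cish were higher in wild type pool 2, by 2.19 and 1.06, whereas Socs7, Socs4 and Socs6 were lower there, by -1.02, -0.79 and -0.45. The median absolute gap over all genes was 0.20 between the wild type pools and 0.18 between the deficient pools. A group difference of the size of that of Pim1, 0.15, already exceeded that of 51.0% of genes. Between the deficient pools the largest gap in the set was that of Socs1 (-0.57).

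**Figure D3:**
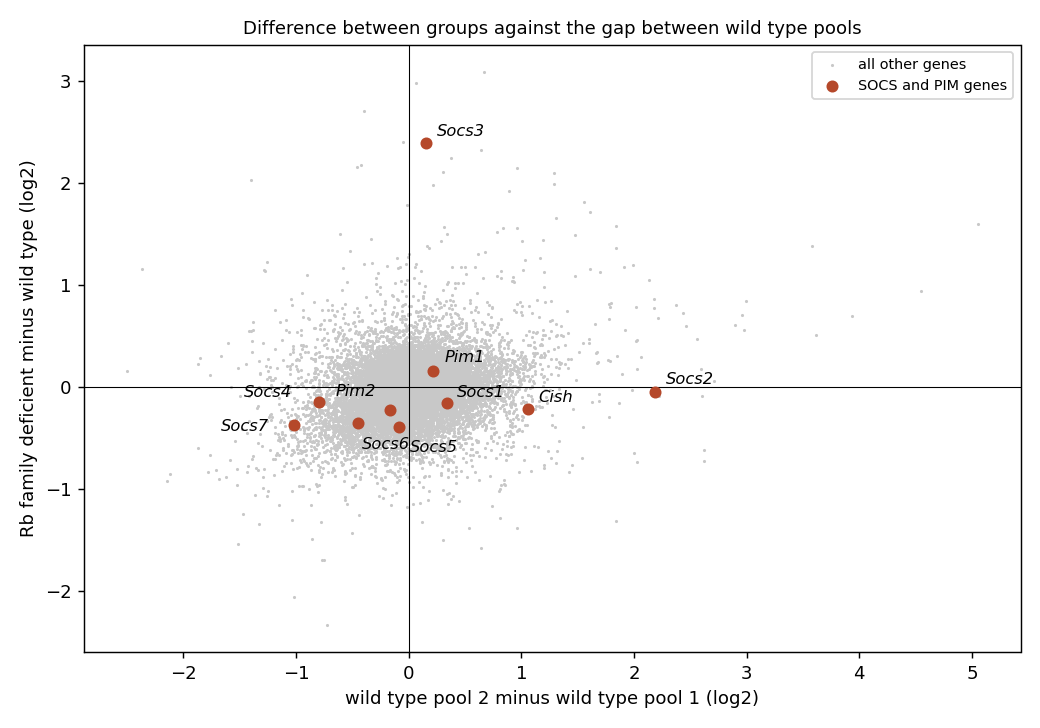
Difference between the groups (vertical axis, log2) against wild type pool 2 minus wild type pool 1 (horizontal axis, log2) for all genes (grey) and the 10 SOCS and PIM genes (red). Socs3 lies high at a small gap of 0.16, Socs2 lies at a group difference of -0.05 with a gap of 2.19, and the rest lie between -0.39 and 0.15 on the vertical axis.

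Markers of other blood cells differed between the pools as well. Of the 9 measured markers of mature neutrophils, a cell type rich in Socs3, all 9 lay above 0 with a median of 0.98, and 6 had both deficient pools above both wild type pools, as 17% of all genes did. Their summed linear signal ran from 42536 to 67348 over the deficient pools (pool 1 the higher) and from 19741 to 42935 over the wild type pools (pool 2 the higher). Mmp8, a collagenase of late neutrophil granules, was at 9.36 and 7.49 against 6.0 and 6.37. No array value is 0 on this scale and detection calls were not used, so none of these markers can be called absent.

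The mean log2 of the neutrophil list was 11.50 and 10.59 in deficient HSC against 9.59 and 10.37, and in the same order Socs3 was at 10.91, 11.14, 8.56 and 8.71. Both were higher in the deficient group. The part of neutrophil RNA in the Socs3 value was not tested.

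By the median, granulocyte and monocyte progenitor markers were higher in the pools numbered 2 of both groups. The median of pool 2 minus pool 1 was 2.08 in the deficient and 1.89 in the wild type pools. Csf1r and Irf8 went the other way in the deficient group, from 7.35 to 7.02 and from 7.54 to 7.20. The protease gene Ctsg, with the largest wild type gap of the list, was at 9.43 and 11.80 in the deficient pools. In the wild type pools Ctsg was at 6.50 and 11.55. Socs2 had a gap of 2.19 between the wild type pools and of 0.00094 between the deficient pools. All 7 measured progenitor markers lay above 0, with a median of 0.61, and none separated the groups. Their summed signal ran from 7534 to 20316 over the deficient pools and from 4261 to 16935 over the wild type pools, pool 2 the higher each time.

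Erythroid markers were higher in wild type pool 2 than in wild type pool 1 by a median of 1.26 and lower in deficient pool 2 than in deficient pool 1 (-0.51). Their summed signal was 5436 in deficient pool 1, 2506 in deficient pool 2, 1533 in wild type pool 1 and 6220 in wild type pool 2. Klf1, the erythroid transcription factor, was at 9.65 and 8.81 against 7.40 and 9.86. Of the 6 measured, 4 lay above 0. Of the 4 pools, wild type pool 1 thus had the lowest sum in each of these 3 lists, and the part of these cells in the Socs2 and Cish values was not tested. The other marker lists had medians of 0.37 (B cells), 0.12 (macrophages), 0.04 (T and NK cells), -0.02 (megakaryocytes) and -0.24 (HSC, 7 of 11 below 0). Without overlap, 5 HSC markers were lower, where 18.5% of all genes were, and 1 was higher (Ctnnal1, 0.75). Of the lower ones, Procr differed by -0.85 (SE 0.17) and Mecom by -0.69 (SE 0.16) on their brightest probe sets. Meis1, also among the lower ones, differed by -0.62 on its brightest probe set and by 0.49 and 0.43 on its others.

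**Figure D4:**
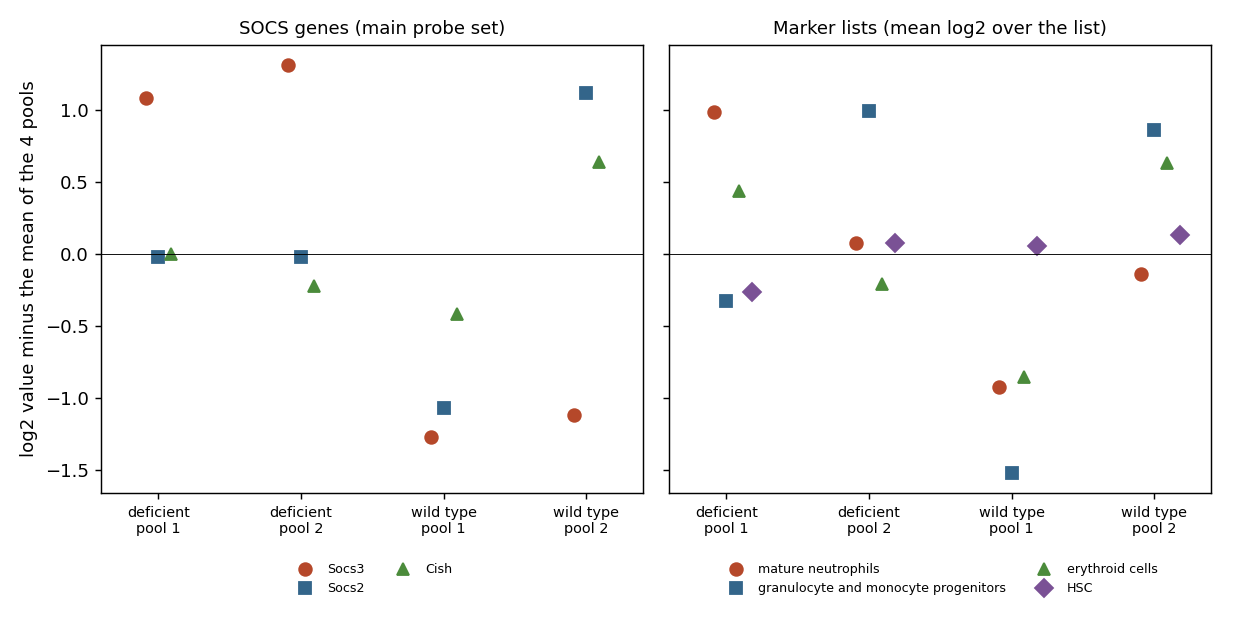
Log2 value minus the mean of the 4 pools (vertical axis) in each pool (horizontal axis) for Socs3, Socs2 and Cish (left) and for the mean over the marker lists of mature neutrophils, granulocyte and monocyte progenitors, erythroid cells and HSC (right). Socs3 is high in both deficient pools, the neutrophil list is highest in deficient pool 1, and Socs2 and Cish are lowest in wild type pool 1 and highest in wild type pool 2.

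The genes whose values across the 4 pools lay nearest to those of Socs3 were sought among 16304 named genes. Euclidean distance was taken after each gene was centred on its own mean. Values were not scaled, so a gene is near mainly when its group difference is of like size. The neighbours are therefore a description and no separate support for the Socs3 difference. Cxcl2, a neutrophil chemokine, was nearest at a distance of 0.48, with 6.64 and 7.05 in deficient HSC against 4.88 and 4.45. Ptgs2, the inducible cyclooxygenase, followed at 0.51, the stefin gene Stfa3 at 0.66, the helix-loop-helix inhibitor Id2 at 0.87 and the transcription factor Klf4 at 0.90. Their group differences ran from 1.92 for Klf4 to 2.70 for Stfa3, and on the second brightest probe sets of Ptgs2, Id2 and Klf4 they were 0.52, 0.72 and 0.73. The nearest other member was Pim1, at a distance of 2.24. The closest pair in the set was Socs5 and Pim2 at 0.24, both with small group differences.

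The signalling genes around the SOCS proteins were read from lists chosen with earlier results known, and limma called 0 genes of each at an adjusted p under 0.05 in either direction. Limma without adjustment put 1 of the 18 measured cytokine ligands above and 0 below at p under 0.05. Over all genes these shares were 2.19% and 4.04%. Il6, the ligand of gp130 receptors, was at 5.49 and 6.19 in deficient HSC against 4.77 and 4.25, differing by 1.33 (SE 0.30). All 4 values are near or below the array medians, and the groups did not overlap. The list's median was 0.07 with 15 of 18 above 0, and without wild type pool 1 it was -0.01 with 9 above 0. With dim genes left out, 5 ligands remained in the fit and their median was 0.02. Il7 differed by -0.35 (-0.02 on its dimmer probe set) and Csf2, below the array medians in all pools, by 0.21.

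Of the 23 measured cytokine receptor chains, 15 lay above 0 and 8 below, with a median of 0.10 (-0.01 with dim genes left out), and 11 separated the groups, 7 higher and 4 lower, or 47.8% beside 35.5% of all genes. At an unadjusted p under 0.05 2 were higher and 1 lower, beside 2.19% and 4.04% of all genes. Csf2rb, the shared beta chain of the interleukin-3, interleukin-5 and GM-CSF receptors, was at 9.88 and 10.24 against 9.0 and 9.15 (difference 0.99, SE 0.18), and its dimmer probe set differed by 0.26. Its close relative Csf2rb2 was at 8.31 and 9.10 against 7.79 and 7.50 (1.06, SE 0.29). The gp130 gene Il6st, whose receptor complexes SOCS3 inhibits, was lower at 7.52 and 7.84 against 8.26 and 7.95 (-0.42, SE 0.20), with its other probe sets at differences of -0.07, -0.15 and 0.06, and Il21r differed by -0.47 (SE 0.14).

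Of the 10 measured JAK and STAT genes, 9 lay below 0 and Jak2 above, with a median of -0.13. At an unadjusted p under 0.05 there were 0, beside 2.19% of all genes higher and 4.04% lower. Jak2, the kinase of the thrombopoietin receptor, was at 11.00 and 11.08 against 10.66 and 10.90 (0.26, SE 0.16), and its dimmer probe set differed by -0.19, also without overlap. Jak1, which serves gp130 and interferon receptors, was at 10.03 and 10.20 against 10.39 and 10.51 (-0.34, SE 0.15), and its other probe sets differed by -0.48 and 0.04. Stat3 itself was at 9.32 and 9.52 against 9.74 and 9.31, with overlap, and its other probe sets differed by -0.35, 0.70 and -0.03. Stat4 and Stat6 differed by -0.39 and -0.37. Without wild type pool 1 the list's median was -0.01.

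The 13 other inhibitors of the pathway had a median of -0.05, which was 0.0044 with median centring. At an unadjusted p under 0.05 there were 0, beside 2.19% of all genes higher and 4.04% lower. The phosphatase gene Ptpn6 (SHP-1) was at 9.74 and 10.13 against 10.60 and 10.27 (-0.50, SE 0.21), and the adaptor gene Sh2b3 (LNK), which restrains thrombopoietin signalling in HSC, was at 8.24 and 8.65 against 8.87 and 8.75 (-0.36, SE 0.19). Their second probe sets differed by -0.20 and -0.01. Ptprc differed by -0.24 and Pias1 by 0.25, each without overlap, and the second brightest Pias1 probe set by -0.30. The SOCS box partners Elob, Eloc, Cul5 and Rnf7 had differences of 0.65, -0.19, 0.23 and -0.04, and all 4 overlapped. Their median of 0.10 was -0.05 with the mean over probe sets.

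Among genes known as STAT3 targets, 14 of 18 lay above 0, with a median of 0.25, and 8 were higher and 1 lower without overlap, beside 17% and 18.5% of all genes. At an unadjusted p under 0.05 3 were higher and 0 lower, beside 2.19% and 4.04% of all genes. Lrg1, an acute phase glycoprotein gene, was at 7.60 and 7.44 against 6.26 and 6.25 (1.27, SE 0.15). The transcription factor gene Cebpd was at 8.69 and 8.32 against 6.97 and 7.79 (1.13, SE 0.31), and its dimmer probe set differed by 0.27. Fos was at 13.30 and 13.58 against 12.09 and 12.59 (1.10, SE 0.23), and Bcl6 differed by 0.75 (SE 0.32), or 0.03 on its dimmer probe set. The median was 0.13 without wild type pool 1. Lrg1 and Cebpd are also expressed in neutrophils, whose markers are given above. The part of neutrophil RNA in the Lrg1 and Cebpd values was not tested.

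STAT5 targets did not share a side. Of 14 measured, 8 lay above 0 and 6 below, with a median of 0.03 (-0.17 with dim genes left out). At an unadjusted p under 0.05 1 was higher and 1 lower, beside 2.19% and 4.04% of all genes. Ccnd1 (cyclin D1) was at 7.01 and 7.59 against 9.38 and 8.62 (-1.70, SE 0.33), the lowest difference in these lists. Its other probe sets differed by -0.97 and -0.54, also without overlap. Id1, an inhibitor of differentiation, was at 7.07 and 7.96 against 5.61 and 6.40 (1.51, SE 0.39). Igf1 was at 5.46 and 5.34 against 5.48 and 6.41 (-0.55, SE 0.32), so the groups were apart by a small margin only. Its other probe sets differed by -0.13, -0.48 and -0.70, the first and the last with overlap.

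Among 11 measured substrates and partners of PIM kinases the median was 0.17, and without adjustment limma put 3 above and 0 below at p under 0.05, beside 2.19% and 4.04% of all genes. The median fell to 0.06 when probe sets were averaged and to 0.08 when specific ones came first, and it was 0.27 without wild type pool 2. The cell cycle inhibitor gene Cdkn1a was at 9.27 and 9.96 against 8.48 and 8.40 (1.17, SE 0.25), and the phosphatase gene Cdc25c was at 8.79 and 8.73 against 7.54 and 7.95 (1.01, SE 0.19). The second Cdkn1a probe set was at 7.89 and 8.20 against 6.18 and 6.92, and that of Cdc25c differed by 0.55. The brighter Cdc25c probe set has an _x_at name. The chemokine receptor gene Cxcr4 differed by 0.67 (SE 0.21) and Myc by -0.31 (SE 0.14), each without overlap. Both Pim1 and Pim2 lay within 0.23 of 0 beside them.

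**Figure D5:**
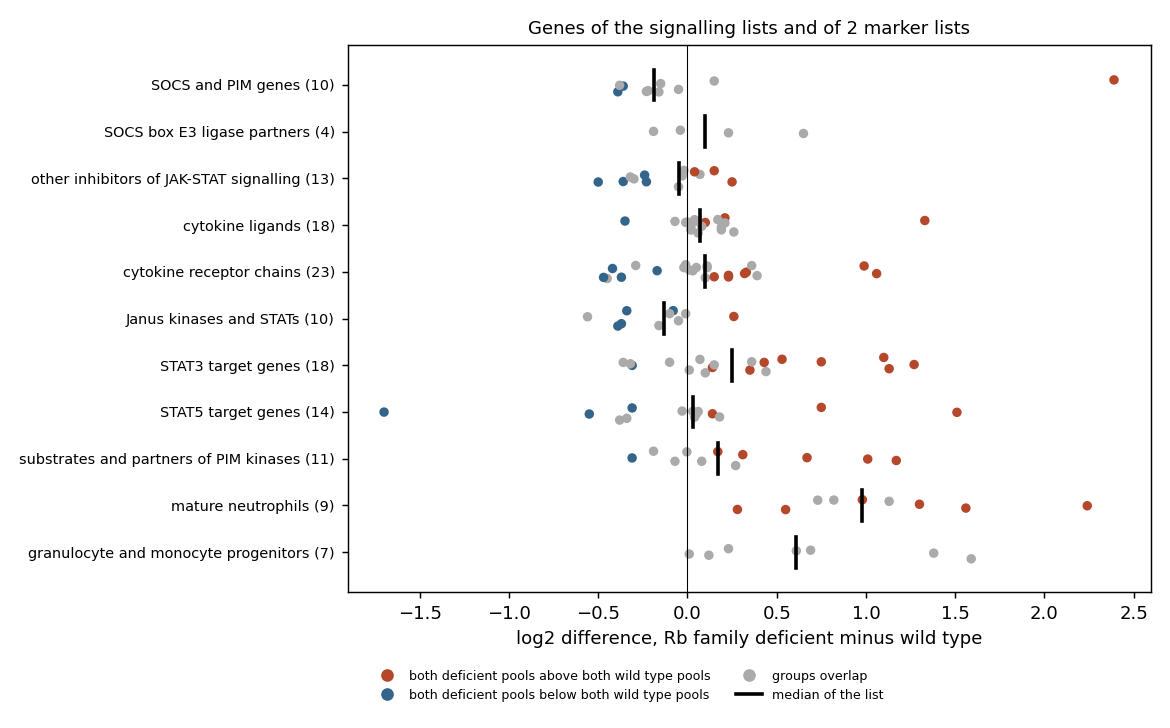
Log2 difference (horizontal axis, Rb family deficient minus wild type) of each measured gene in the signalling lists and in 2 marker lists, with the number of genes in brackets. Red points have both deficient pools above both wild type pools, blue points both below, grey points overlap, and black bars are list medians. Socs3 at 2.39 is far from the other SOCS and PIM genes, Il6, Csf2rb and Csf2rb2 lead the ligands and receptors at 1.33, 0.99 and 1.06, and Ccnd1 lies lowest at -1.70.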

How the data were processed

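The authors deposited a log2 expression value for each probe set on each array. Per the submitters' processing notes RMA and limma were used, and neither version nor setting is given in the sources used here. That the scale is log2 follows from the range of the deposited values, 2.65 to 14.9. RMA gives the arrays nearly equal distributions, which hides any change in a cell's total RNA and compresses folds of dim probe sets. Precision is limited by having 4 arrays. Of 45101 probe sets, 34945 had exactly 1 gene symbol in the platform annotation of 2016, and symbols were updated by gene ID with RefSeq's GRCm38.p6 table. Differences, moderated SE and p-values came from limma 3.58.1 (lmFit and eBayes, R 4.3.3) over 18193 genes with no block and no dim filter, with Benjamini-Hochberg adjustment, and the SE of further probe sets from the same fit over all probe sets other than controls. The fit was tested on simulated data.

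The members, gene lists and marker lists were chosen with earlier results of these data known. Genes named from a list are up to 4 with the largest difference among those whose groups do not overlap, beside all members, Pim3, the targeted genes and the 5 genes nearest to Socs3. Stat3, the SOCS box partners, Ctsg, Ctnnal1, Meis1, Klf1 and Mmp8 were named after their values were seen. So were the HSC and sort markers, Eif2s3y, Xist and the Actb and Gapdh controls. Alternatives were each pool left out, a replicate block, other probe set rules, median centring, a dim filter and a variance trend. Promoter sequences are RefSeq's (GRCm38.p6).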

Additional observations from a re-analysis of the deposited data

How the results depend on the processing

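Limma called 0 genes in either direction under every alternative run, namely each pool left out, the replicate block, specific probe sets first, the mean over probe sets, median centring, dim genes left out and the variance trend. Without adjustment (p under 0.05) 399 genes were higher and 735 lower, 601 and 530 with median centring, and 176 and 408 with dim genes left out, where fewer genes were tested. With a pool left out these counts ran from 244 to 689 and from 317 to 1082. The lone pool left in a group is then assumed to vary like the others.

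Pools share numbers across groups, but nothing in the labels pairs them, and deviations of same-numbered pools correlated at -0.188 across genes. With the replicate block the unadjusted counts were 281 and 457. Socs3 then differed by 2.39, which such a block cannot change here, as each group holds each pool number once. A crossed replicate block, added after seeing the data, called 0 genes, with 518 higher and 1151 lower unadjusted.

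Socs3 was 0.83 with specific probe sets first and 1.80 with the mean over probe sets, and Socs5 was -0.21 with that mean. With a pool left out Socs3 ran from 2.27 to 2.50. STAT3 targets had a median of 0.15 with the mean over probe sets and 0.13 to 0.29 with a pool left out. Receptor chains had a median of -0.01 with dim genes left out and -0.07 to 0.21 with a pool left out. Cytokine ligands ran from -0.01 to 0.14, PIM substrates and partners from 0.16 to 0.27, STAT5 targets from -0.02 to 0.10, SOCS box partners from -0.17 to 0.36, other inhibitors from -0.19 to 0.02 and JAK and STAT genes from -0.21 to -0.01 with a pool left out. Median differences of small size turned sign, with STAT5 targets at -0.17 when dim genes were left out and the SOCS box partners at -0.05 with the mean over probe sets. Socs1 was dim and has no value under the dim filter. The causes were not tested. Detection calls were not used, so values near the array medians, such as those of Socs1, Il6 and Csf2, have no check against background.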
